A study of Homo sapiens with 20 samples.

Results

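The genes described here are the secreted Wnt ligands, their Frizzled receptors, the secreted antagonists and the feedback gene AXIN2. They were chosen by name: a row of the expression table was a member if any of its platform gene symbols was WNT, FZD, SFRP or DKK followed by a digit, or was FRZB, WIF1 or AXIN2. This gave 44 of the 18708 rows, standing for 40 genes, of which 39 had at least 1 row of their own. The rows comprised 19 for WNT ligands, 12 for Frizzled receptors, 5 for the SFRP and FRZB decoys, 5 for DKK antagonists, 2 for AXIN2 and 1 for WIF1. FZD5, DKK3 and AXIN2 had 2 rows each, and 2 rows carried several symbols: row 2780907, named for DKK2 and RAC1, and row 3343452, named for PRSS23 and FZD4.

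The study profiled WM793, an established line from a human melanoma in its vertical growth phase, together with lines made from it that overexpress NME1, a metastasis suppressor. The groups were NME1-wild-type, the mutant lines NME1-E5A, NME1-K12Q and also NME1-P96S, named for the mutations their NME1 constructs carry, and Parent, the WM793 cells themselves. All were grown for 3 days before RNA extraction, and each of the 5 lines was hybridised to 4 Affymetrix exon arrays described as technical replicates, giving 20 arrays. Each construct was thus represented by 1 cell line, so every p-value below measures the spread between arrays of a line and not the spread between independently made lines.

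Wnt proteins are lipid-modified secreted ligands that bind Frizzled receptors, either with the co-receptors LRP5 and LRP6, which leads to stabilisation of beta-catenin, or through branches that act on cell polarity and calcium without it. SFRP proteins, FRZB and WIF1 bind the ligands outside the cell, DKK1 blocks LRP5 and LRP6, and AXIN2 is a beta-catenin target that feeds back on the pathway. In melanoma, WNT5A is known for signalling outside the beta-catenin branch in invasive cells, while beta-catenin signalling is tied to the melanocyte lineage factor MITF.

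In 10 comparisons between the lines, 3 of these genes were called changed at least once: FZD4, a receptor, was lowest in NME1-E5A; DKK1, an antagonist, was lowest in NME1-P96S; and WNT7B, a ligand, differed between NME1-K12Q and NME1-P96S. A row was called changed when limma's adjusted p was under 0.05 (Benjamini-Hochberg over all 18708 rows) and the fold was at least 1.5. In single comparisons 0.00535% to 0.283% of all rows were called, and the share called at least once over the 10 was not counted. A moderated F test over the 5 lines called FZD4 (adjusted p = 0.000340) and DKK1 (adjusted p = 0.0254) and did not call WNT7B (adjusted p = 0.121). That is 2 of 44 member rows, or 4.55%, against 0.577% of all rows in the table (108 rows). The F test called 1 member in place of 2 when any 1 of 6 arrays was left out: replicate 2 of NME1-wild-type, replicates 2 and 3 of NME1-E5A, replicate 3 of NME1-K12Q, and replicates 2 and 4 of NME1-P96S.

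Across the table the arrays had medians of 6.27 to 6.50 (log2) and interquartile ranges of 2.19 to 3.16, and any pair of arrays correlated across rows at 0.910 to 0.995. The narrowest arrays were replicate 2 of Parent (2.19), replicate 3 of NME1-P96S (2.33) and replicate 2 of NME1-K12Q (2.46). The row for NME1, the overexpressed gene, is also annotated to the NME1-NME2 readthrough transcript, and whether its probes measure the introduced constructs is not known from the table. It averaged 9.81 ± 0.0486 in NME1-wild-type, 9.78 ± 0.108 in NME1-E5A, 9.75 ± 0.216 in NME1-K12Q and 9.78 ± 0.110 in NME1-P96S, against 9.53 ± 0.173 in Parent (SD, n = 4 arrays each), and passed the test in none of the 4 comparisons with Parent (lowest adjusted p = 0.850, limma). Of the markers of the melanocyte lineage, SOX10 lay at 9.20 to 9.66 and S100B at 7.76 to 9.26 over the 20 arrays, MITF at 5.51 to 5.95 and MLANA at 3.04 to 4.31. Markers of other cell types lay at low and middle levels. Those listed for leukocytes included PTPRC at 3.06 to 3.71 and CD14 at 4.93 to 6.35. Those for keratinocytes included EPCAM at 3.21 to 4.21 and KRT10 at 5.96 to 6.67. Fibroblast markers included DCN at 3.99 to 5.03 and COL1A1 at 6.26 to 7.39, and endothelial markers PECAM1 at 4.01 to 5.07 and CDH5 at 5.01 to 6.10. None of the 25 marker rows was called in any comparison. The table has no detection calls, so a low row cannot be told apart from background, and the levels of different rows depend on their probes and are not compared.

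FZD4 encodes a Frizzled receptor that also binds the non-Wnt ligand Norrin, and DKK1 encodes a secreted inhibitor that beta-catenin itself can induce. Their promoters are shown because these were the members called by the F test. They were taken from RefSeq on GRCh38.p14, from 250 bases before to 50 after the start site. The member promoters searched below numbered 30, from 27 of the 40 family genes. The other family genes were not searched, and whether RefSeq lists a promoter for them is not given here. Capitals mark CTTTGA or its reverse complement TCAAAG, the core bound by TCF and LEF factors, and TATAAA on the forward strand, the TATA box.
DKK1: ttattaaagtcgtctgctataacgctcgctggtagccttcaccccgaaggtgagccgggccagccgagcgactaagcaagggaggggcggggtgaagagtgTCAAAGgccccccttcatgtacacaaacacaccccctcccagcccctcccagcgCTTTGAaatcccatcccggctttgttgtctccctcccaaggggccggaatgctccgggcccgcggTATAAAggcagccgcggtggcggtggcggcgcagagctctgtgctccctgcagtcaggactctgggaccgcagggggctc
FZD4: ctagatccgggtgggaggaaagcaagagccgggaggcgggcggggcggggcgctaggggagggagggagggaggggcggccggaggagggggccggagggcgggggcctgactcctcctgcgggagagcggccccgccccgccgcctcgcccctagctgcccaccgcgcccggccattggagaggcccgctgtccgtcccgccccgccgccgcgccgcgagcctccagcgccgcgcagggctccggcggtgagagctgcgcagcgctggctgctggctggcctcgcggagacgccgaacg
The DKK1 window, chr10:52314031-52314330 on the forward strand, held TCAAAG 149 bases and CTTTGA 95 bases before the start site, and TATAAA 30 bases before it. The FZD4 window, chr11:86955346-86955645 on the reverse strand, held none of these letters. Among the 30 member promoters searched, only that of DKK1 held the TCF core. Of 35116 promoters of the same length, 12.9% held it on either strand, and 1.29% held 2 or more copies. TATAAA was present in 2 of the 30, those of DKK1 and FZD8, against 7.33% of all promoters. Neither count covers the family genes that were not searched, so neither holds for the whole family. In base composition, 63.7% of the DKK1 window and 79.7% of the FZD4 window was G or C, with a median of 58.7% over all promoters; a match in a window is a string of letters and no measurement of binding.

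Among the ligands, WNT7B was the only member called in any comparison. WNT7B is a ligand that can act through beta-catenin. Its log2 values were 5.17, 5.64, 5.71 and 5.50 in the arrays of NME1-wild-type (replicates 1 to 4), 5.84, 5.56, 5.46 and 5.13 in NME1-E5A and 5.53, 6.38, 6.07 and 6.10 in NME1-K12Q. They were 4.35, 4.66, 5.47 and 4.97 in NME1-P96S, against 5.61, 5.76, 5.55 and 5.30 in Parent. The NME1-K12Q arrays all lay above the NME1-P96S arrays, with both of those lines overlapping the other 3, and the highest NME1-P96S value came from the narrow array, replicate 3.

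WNT7B averaged 6.02 ± 0.357 in NME1-K12Q and 4.86 ± 0.477 in NME1-P96S (SD, n = 4 arrays each), a log2 difference of 1.16 with a 95% interval of 0.71 to 1.61, or 2.23-fold (adjusted p = 0.0176, limma). It was 1 of 2 members higher in NME1-K12Q than in NME1-P96S, the other being DKK1, where 0.283% of all rows were called in either direction and 0.182% were higher. Against Parent, WNT7B stood at 0.47 in NME1-K12Q (adjusted p = 1.00) and -0.69 in NME1-P96S (adjusted p = 0.850, limma), neither past the threshold. In bulk RNA such as this, fewer cells expressing a gene and less RNA per cell cannot be told apart. The call was lost without replicate 2, 3 or 4 of NME1-K12Q or replicate 1 or 2 of NME1-P96S, and over all single omissions the difference was 0.99 to 1.36 with adjusted p up to 0.0866. With only the 8 arrays of both lines in the fit the adjusted p was 0.416, and the row was removed where dim rows were left out.

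**Figure D1:**
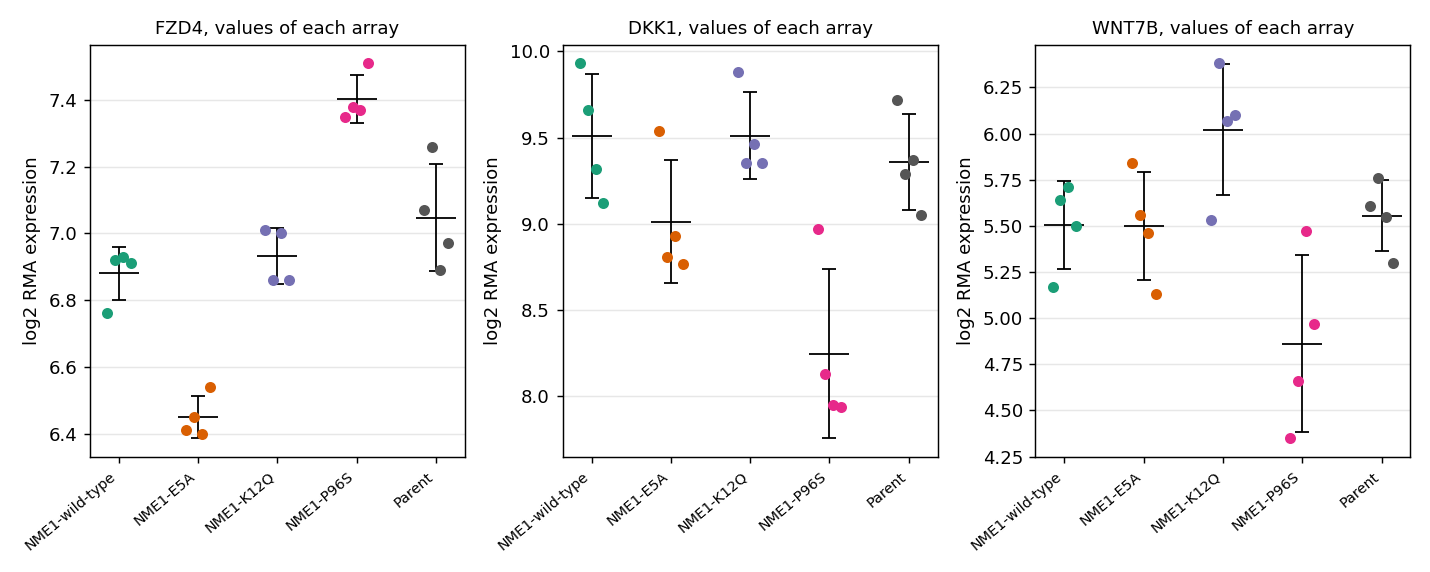
Log2 RMA expression (vertical axis) of FZD4, DKK1 and WNT7B in each of the 4 arrays of each line (points), with the line mean and SD (bars). The NME1-E5A points for FZD4 lie at 6.40 to 6.54, below all the others, and the NME1-P96S points for DKK1 lie at 7.94 to 8.97.

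WNT5A had log2 values of 9.05, 8.99, 9.65 and 9.60 in NME1-wild-type, 9.15, 9.66, 9.68 and 9.43 in NME1-E5A, 9.45, 9.52, 9.90 and 9.88 in NME1-K12Q and 9.02, 9.56, 8.74 and 9.25 in NME1-P96S, against 8.91, 8.44, 9.45 and 9.76 in Parent. The lines overlapped throughout, with Parent spanning 8.44 to 9.76. Its mean was highest in NME1-K12Q at 9.69 ± 0.235, against 9.14 ± 0.582 in Parent (SD, n = 4 arrays each), a difference of 0.55 with an interval of 0.04 to 1.06 that did not pass (adjusted p = 1.00, limma). Against Parent, WNT5A stood at 0.18 in NME1-wild-type, 0.34 in NME1-E5A and 0.00 in NME1-P96S.

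The other 17 WNT rows were WNT1, WNT2, WNT2B, WNT3, WNT3A, WNT4, WNT5B, WNT6, WNT7A, WNT8A, WNT8B, WNT9A, WNT9B, WNT10A, WNT10B, WNT11 and WNT16. Their line means ran from 4.10 to 7.23, and the range between the 5 line means of a row was 0.18 to 0.39. None of the 17 was called by any test. WNT6, given as the example of these rows, averaged 7.08 in NME1-wild-type, 7.11 in NME1-E5A, 7.13 in NME1-K12Q and 6.93 in NME1-P96S, against 7.23 in Parent.

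NME1-P96S had the lowest line mean in 16 of the 19 WNT rows, and in 35.2% of all rows of the table. Parent had the highest in 15 of the 19, and in 37.3% of all rows. NME1-P96S minus NME1-wild-type was negative in 19 of 19 rows, with a median of -0.20 against -0.04 over all rows of the table, and NME1-K12Q minus NME1-P96S was positive in 19 of 19, with a median of 0.20 against 0.02 over all rows. NME1-P96S minus Parent was negative in 18 of 19, the exception being WNT5A, with a median of -0.29 against -0.06 over all rows. The median over all rows had the same sign in each of these comparisons, and the share of all rows with that sign was not counted. The other differences from Parent had WNT medians of -0.10 in NME1-wild-type, -0.10 in NME1-E5A and -0.06 in NME1-K12Q; the 4 comparisons share the Parent arrays.

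These counts and medians changed with the treatment of array width. With each array's interquartile range as a covariate, NME1-P96S minus NME1-wild-type was negative in 13 of 19 WNT rows with a median of -0.07, and NME1-P96S minus Parent in 11 of 19 with a median of -0.02; the WNT medians of the other differences from Parent turned positive, at 0.03 in NME1-wild-type, 0.01 in NME1-E5A and 0.05 in NME1-K12Q. After quantile normalisation the counts were 18 and 19 of 19 with medians of -0.10 and -0.16, and without the 3 narrowest arrays they were 19 of 19 in both, with medians of -0.45 and -0.35. For NME1-K12Q minus NME1-P96S, the WNT median was 0.05 (15 of 19 positive) with the covariate, 0.12 (18 of 19) after quantile normalisation and 0.34 (19 of 19) without the 3 narrowest arrays. It was 0.09 (17 of 19) without NME1-K12Q replicate 2, and 0.08 (16 of 19), 0.07 (14 of 19) and 0.45 (19 of 19) without replicates 1, 2 and 3 of NME1-P96S. Without NME1-P96S replicate 2 the median against NME1-wild-type was -0.03 (14 of 19 negative), without replicate 1 it was -0.10 (15 of 19), and without replicate 3 it was -0.45 (19 of 19); against Parent the corresponding medians were -0.14, -0.17 and -0.52. Without Parent replicate 2, the median difference of NME1-P96S from Parent was -0.12 (16 of 19 negative), and that of NME1-wild-type from Parent was 0.04 with 4 of 19 negative, against 16 of 19 with all arrays.

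**Figure D2:**
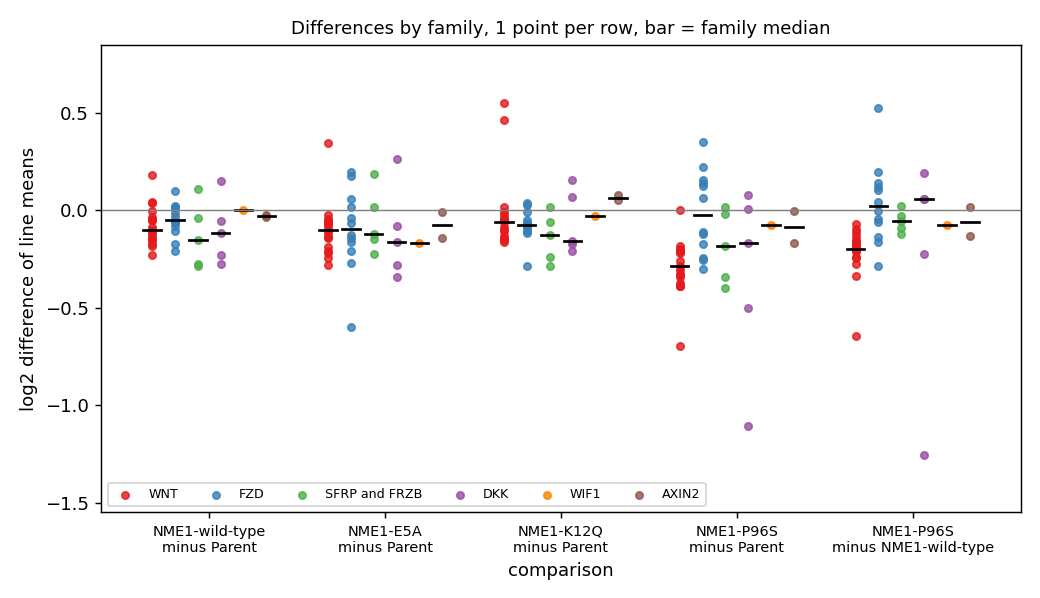
Log2 difference of line means (vertical axis) for every member row in 5 comparisons (horizontal axis), with 1 point per row coloured by family and a bar at each family's median. The WNT points in NME1-P96S minus Parent centre on -0.29, while the FZD points there centre on -0.02 and lie on both sides of 0.

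Frizzled receptors are the membrane proteins that bind Wnt ligands through an outer cysteine-rich domain. FZD4 was the receptor that differed most. Its values were 6.41, 6.45, 6.40 and 6.54 in the NME1-E5A arrays and 7.35, 7.38, 7.37 and 7.51 in NME1-P96S. They were 6.76, 6.92, 6.93 and 6.91 in NME1-wild-type and 7.01, 6.86, 7.0 and 6.86 in NME1-K12Q, against 7.07, 7.26, 6.89 and 6.97 in Parent. NME1-E5A lay below every array of the other 4 lines and NME1-P96S above every array of the other 4.

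FZD4 averaged 6.45 ± 0.0656 in NME1-E5A and 7.40 ± 0.0727 in NME1-P96S (SD, n = 4 arrays each), a difference of -0.95 with an interval of -1.16 to -0.74 and a 1.94-fold lower level in NME1-E5A (adjusted p = 0.000117, limma). It was the only member called there, where 0.235% of rows were called and 0.107% were lower. This call held under every alternative and every single omission tried, with the difference at -0.98 to -0.92 over the omissions. NME1-E5A was also 1.52-fold below Parent, at 7.05 ± 0.159 (SD, n = 4 arrays), a difference of -0.60 with an interval of -0.81 to -0.39 (adjusted p = 0.00790, limma). Again FZD4 was the only member called, against 0.214% of all rows and 0.0748% of rows lower.

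The difference of FZD4 between NME1-E5A and Parent lay near the fold threshold. It was -0.53 without Parent replicate 2 and -0.58 without NME1-E5A replicate 3, both under 1.5-fold, and likewise -0.57 with arrays centred on their medians and -0.53 without the 3 narrowest arrays. With only the 8 arrays of both lines in the fit its adjusted p was 0.304.

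FZD4 in NME1-P96S stood 0.52 above NME1-wild-type (adjusted p = 0.0288, limma), which is 1.44-fold and short of the fold threshold. NME1-K12Q minus NME1-P96S was -0.47 (adjusted p = 0.0468, limma), also short of it. NME1-P96S minus Parent was 0.35, with an interval of 0.14 to 0.56, and did not pass (adjusted p = 0.642, limma). Nor did NME1-E5A minus NME1-wild-type at -0.43 (adjusted p = 0.128) or NME1-E5A minus NME1-K12Q at -0.48 (adjusted p = 0.0535, limma). By line mean, FZD4 thus ran from NME1-E5A through NME1-wild-type (6.88), NME1-K12Q (6.93) and Parent (7.05) to NME1-P96S, and the arrays of the middle 3 lines overlapped.

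Row 3343452, named for both PRSS23, a protease gene beside FZD4, and FZD4, had values of 8.97, 8.86, 8.77 and 8.70 in NME1-wild-type, 8.70, 8.51, 8.64 and 8.56 in NME1-E5A, 9.0, 8.62, 8.77 and 8.62 in NME1-K12Q and 9.06, 8.80, 8.99 and 8.94 in NME1-P96S, against 8.94, 8.86, 8.61 and 8.50 in Parent. Its NME1-E5A arrays lay below all NME1-P96S arrays, with a difference of -0.35 and an interval of -0.60 to -0.10 that did not pass (adjusted p = 0.600, limma). NME1-E5A minus Parent was -0.13 and NME1-P96S minus Parent 0.22 on this row, and its lines overlapped in both cases. Which of the 2 genes its probes measure is not known from the table.

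**Figure D3:**
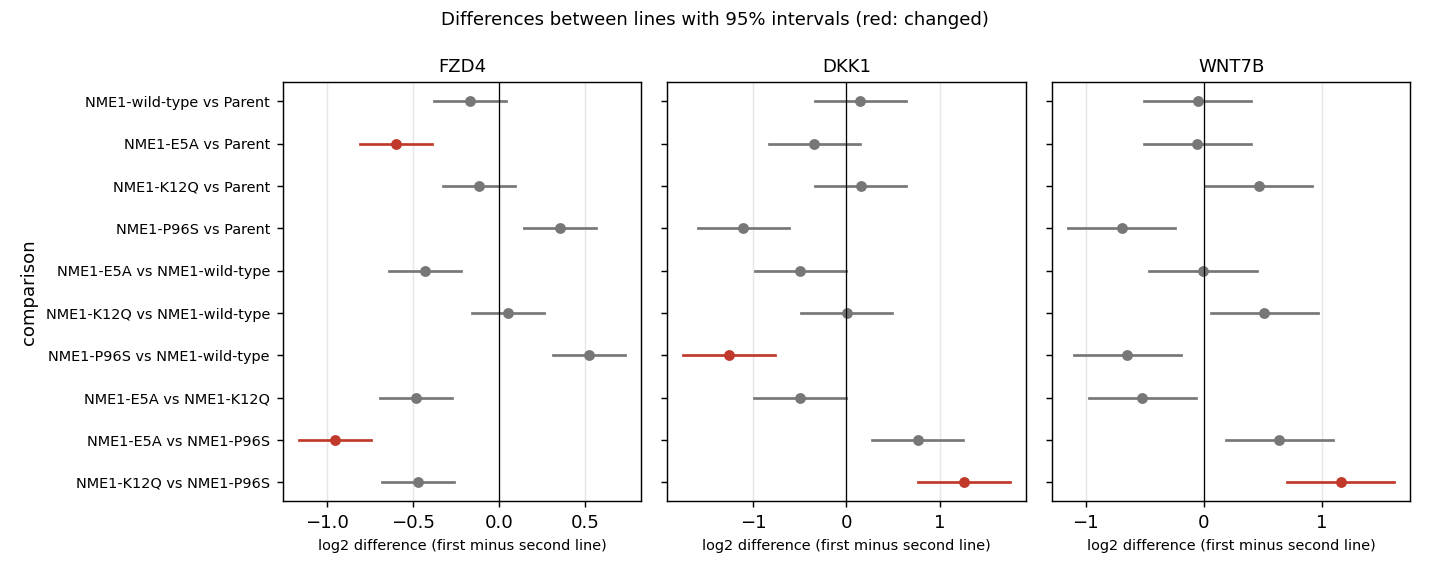
Log2 difference between lines (horizontal axis, first named minus second) with its 95% interval for FZD4, DKK1 and WNT7B in the 10 comparisons (vertical axis), red where the row was called changed. FZD4 in NME1-E5A minus NME1-P96S lies at -0.95 and DKK1 in NME1-P96S minus NME1-wild-type at -1.26.

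The other receptors given by array were not called in any comparison. FZD1 had 8.31, 8.19, 8.76 and 8.73 in NME1-wild-type, 8.43, 8.65, 8.77 and 8.62 in NME1-E5A, 8.36, 8.50, 8.47 and 8.63 in NME1-K12Q and 8.47, 8.70, 8.82 and 8.79 in NME1-P96S, against 8.28, 8.32, 8.71 and 8.92 in Parent. FZD6, which is best known from planar polarity, had 8.16, 7.75, 8.29 and 8.08 in NME1-wild-type, 8.10, 8.30, 8.47 and 8.05 in NME1-E5A, 8.13, 7.82, 8.23 and 8.21 in NME1-K12Q and 8.31, 8.52, 7.92 and 8.09 in NME1-P96S, against 7.98, 7.40, 8.33 and 8.51 in Parent. Every line overlapped every other for FZD6, and no FZD1 difference passed.

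FZD8 had 8.43, 8.80, 8.55 and 8.52 in NME1-wild-type, 8.53, 8.55, 8.63 and 8.81 in NME1-E5A, 8.43, 8.74, 8.57 and 8.38 in NME1-K12Q and 8.16, 8.17, 8.89 and 8.54 in NME1-P96S, against 8.52, 9.05, 8.58 and 8.30 in Parent. FZD2 had 8.0, 8.25, 8.32 and 8.18 in NME1-wild-type, 7.95, 8.22, 8.11 and 8.25 in NME1-E5A, 8.13, 8.47, 8.17 and 8.04 in NME1-K12Q and 7.95, 8.19, 8.41 and 8.17 in NME1-P96S, against 8.22, 8.45, 8.46 and 8.05 in Parent. FZD9 had 7.35, 7.61, 7.49 and 7.34 in NME1-wild-type, 7.28, 7.30, 7.52 and 7.45 in NME1-E5A, 7.36, 7.49, 7.37 and 7.26 in NME1-K12Q and 7.05, 7.30, 7.96 and 7.29 in NME1-P96S, against 7.24, 8.12, 7.78 and 7.48 in Parent. In FZD8 and FZD9 the highest NME1-P96S array was replicate 3, the narrow one, at 8.89 and 7.96, and in FZD9 Parent replicate 2, another narrow array, was the highest of all 20 at 8.12.

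The remaining FZD rows were FZD3, both rows of FZD5, FZD7 and FZD10, with line means of 4.70 to 7.19 and ranges between line means of 0.17 to 0.32. FZD7, given as their example, averaged 6.94 in NME1-wild-type, 7.19 in NME1-E5A, 6.99 in NME1-K12Q and 6.88 in NME1-P96S, against 7.0 in Parent. Its largest difference, NME1-E5A minus NME1-P96S, was 0.32 and did not pass (adjusted p = 0.804, limma). Over the 12 FZD rows the median difference from Parent was -0.05 in NME1-wild-type, -0.10 in NME1-E5A, -0.07 in NME1-K12Q and -0.02 in NME1-P96S.

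DKK1 was the antagonist that differed between lines. Its values were 8.97, 8.13, 7.95 and 7.94 in the NME1-P96S arrays, 9.93, 9.66, 9.32 and 9.12 in NME1-wild-type and 9.88, 9.35, 9.46 and 9.35 in NME1-K12Q. They were 9.54, 8.81, 8.93 and 8.77 in NME1-E5A, against 9.72, 9.29, 9.37 and 9.05 in Parent. Every NME1-P96S array lay below every array of NME1-wild-type, NME1-K12Q and Parent, and replicate 1 was the highest array in all 5 lines.

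DKK1 averaged 8.25 ± 0.487 in NME1-P96S and 9.51 ± 0.357 in NME1-wild-type (SD, n = 4 arrays each), a difference of -1.26 with an interval of -1.75 to -0.77 and a 2.39-fold lower level in NME1-P96S (adjusted p = 0.0221, limma). It was the only member called between these lines, where 0.198% of all rows were called and 0.128% were lower in NME1-P96S. NME1-K12Q, at 9.51 ± 0.250, stood 1.26 above NME1-P96S (interval 0.77 to 1.75, 2.40-fold, adjusted p = 0.0167, limma). Omission of 1 array left the difference from NME1-wild-type at -1.5 to -1.12, and the call was lost without replicate 1, 2 or 3 of NME1-wild-type or replicate 2, 3 or 4 of NME1-P96S, with adjusted p up to 0.144. For NME1-K12Q against NME1-P96S the range was 1.14 to 1.5. That call was lost without replicate 1 or 3 of NME1-K12Q or replicate 2 or 4 of NME1-P96S, with adjusted p up to 0.0854. In fits of only the 8 arrays compared, the adjusted p was 0.346 against NME1-wild-type and 0.283 for NME1-K12Q. With the replicate number as a block in the fit, the adjusted p was 4.41e-05 against NME1-wild-type and 8.70e-05 for NME1-K12Q (limma). Same-numbered arrays of NME1-P96S and either line did not all deviate together.

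NME1-P96S minus Parent was -1.11 for DKK1, with an interval of -1.60 to -0.62, a 2.15-fold lower level that missed the threshold (adjusted p = 0.0991, limma). No member was called between NME1-P96S and Parent, where 0.0962% of all rows were, while 5 of the 44 (11.4%) had an unadjusted p under 0.05, as did 3.15% of all rows (limma). The settings under which DKK1 passed there included quantile normalisation (-1.18, adjusted p = 0.0335), the interquartile range as a covariate (-1.14, adjusted p = 0.0396) and the omission of NME1-P96S replicate 1 (-1.35, adjusted p = 0.0236, limma). With the replicate block it passed as well (-1.11, adjusted p = 0.000360, limma), though same-numbered arrays of these 2 lines did not all deviate together. The other differences from Parent were 0.15 in NME1-wild-type, -0.34 in NME1-E5A (interval -0.83 to 0.15) and 0.15 in NME1-K12Q, and none of the 3 passed. NME1-E5A lay between the others, 0.77 above NME1-P96S (adjusted p = 0.376) and -0.49 relative to NME1-wild-type (adjusted p = 1.00, limma).

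SFRP1, which encodes a secreted decoy with a Frizzled-like domain, had values of 11.18, 11.39, 11.32 and 11.29 in NME1-wild-type, 11.36, 11.33, 11.41 and 11.38 in NME1-E5A, 11.19, 11.31, 11.11 and 11.20 in NME1-K12Q and 11.28, 11.17, 11.19 and 11.17 in NME1-P96S, against 11.42, 11.06, 11.09 and 11.16 in Parent. The NME1-E5A arrays lay above all NME1-K12Q and all NME1-P96S arrays by a mean difference of 0.17 each, and neither difference passed (adjusted p = 1.00 and 1.00, limma). SFRP2, a related decoy, had 3.84, 4.13, 3.82 and 3.71 in NME1-wild-type, 3.84, 3.90, 4.05 and 3.93 in NME1-E5A, 4.03, 4.29, 4.12 and 3.68 in NME1-K12Q and 3.99, 3.39, 3.86 and 3.78 in NME1-P96S, against 4.21, 4.85, 3.89 and 3.66 in Parent. The highest SFRP2 value was Parent replicate 2, and no line stood apart from Parent.

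DKK3, a divergent member of the family that does not share the LRP-blocking role of DKK1, was measured on row 3363266 with values of 9.83, 9.67, 9.68 and 10.03 in NME1-wild-type, 9.84, 9.78, 9.79 and 10.06 in NME1-E5A, 9.99, 9.71, 9.81 and 9.92 in NME1-K12Q and 9.95, 9.70, 9.74 and 10.06 in NME1-P96S, against 9.95, 10.22, 9.84 and 10.11 in Parent. Row 2780907, named for DKK2 and RAC1, had 4.59, 4.79, 4.58 and 4.62 in NME1-wild-type, 4.94, 4.47, 4.39 and 4.77 in NME1-E5A, 4.83, 4.72, 4.54 and 4.74 in NME1-K12Q and 4.15, 4.12, 5.04 and 4.36 in NME1-P96S, against 4.59, 5.27, 4.96 and 4.85 in Parent. On the shared row NME1-P96S minus Parent was -0.50 (adjusted p = 0.850, limma), with NME1-P96S replicate 3 inside the Parent range. No difference of either row passed.

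FRZB, SFRP4 and SFRP5 had line means of 3.68 to 6.09 with ranges of 0.080 to 0.34, DKK4 and the other DKK3 row 3.89 to 4.30, and WIF1 3.96 to 4.13. SFRP5, given as the example of the first 3, averaged 5.80 in NME1-wild-type, 5.94 in NME1-E5A, 5.80 in NME1-K12Q and 5.75 in NME1-P96S, against 6.09 in Parent. None of these rows was called in any comparison.

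AXIN2, a scaffold protein induced by beta-catenin and often read as a marker of its activity, had line means of 4.84 to 5.91 over its 2 rows, with ranges between line means of 0.10 and 0.22. Row 3767480 averaged 5.82 in NME1-wild-type, 5.72 in NME1-E5A, 5.91 in NME1-K12Q and 5.69 in NME1-P96S, against 5.86 in Parent. NME1-E5A minus NME1-K12Q on this row was -0.19 with the arrays not overlapping, and it did not pass (adjusted p = 1.00, limma).

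The NME1-wild-type line held no changed member against Parent, where 0.0321% of all rows were called, and none of the 44 had an unadjusted p under 0.05 there (limma; 262 of all rows had, or 1.40%). Against Parent, NME1-K12Q also had 0 changed members, with 0.00535% of all rows called and 2 members at an unadjusted p under 0.05, beside 280 of all rows, or 1.5% (limma). The same 0 was found for NME1-E5A against NME1-wild-type, where 0.203% of all rows were called and where 3 members and 2.40% of all rows had an unadjusted p under 0.05 (limma). It was also found for NME1-K12Q against NME1-wild-type, where 0.0321% were called and where 1 member and 1.32% of all rows had such a p. For NME1-E5A against NME1-K12Q, with 0 changed members, 0.171% of rows were called, and 3 members and 2.80% of all rows had such a p. Members whose 4 arrays in one line lay all above or all below the 4 of the other were counted as well. Against Parent they were seen in 0 members for NME1-wild-type (0.845% of all rows), 1 for NME1-E5A (2%), 0 for NME1-K12Q (1.17%) and 2 for NME1-P96S (1.23%). Against NME1-wild-type they were seen in 3 for NME1-E5A (3.29%), 0 for NME1-K12Q (1.36%) and 2 for NME1-P96S (1.83%). Between mutant lines they were seen in 4 for NME1-E5A against NME1-K12Q (3.53%), 3 for NME1-E5A against NME1-P96S (3.03%) and 3 for NME1-K12Q against NME1-P96S (2.22%).

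**Figure D4:**
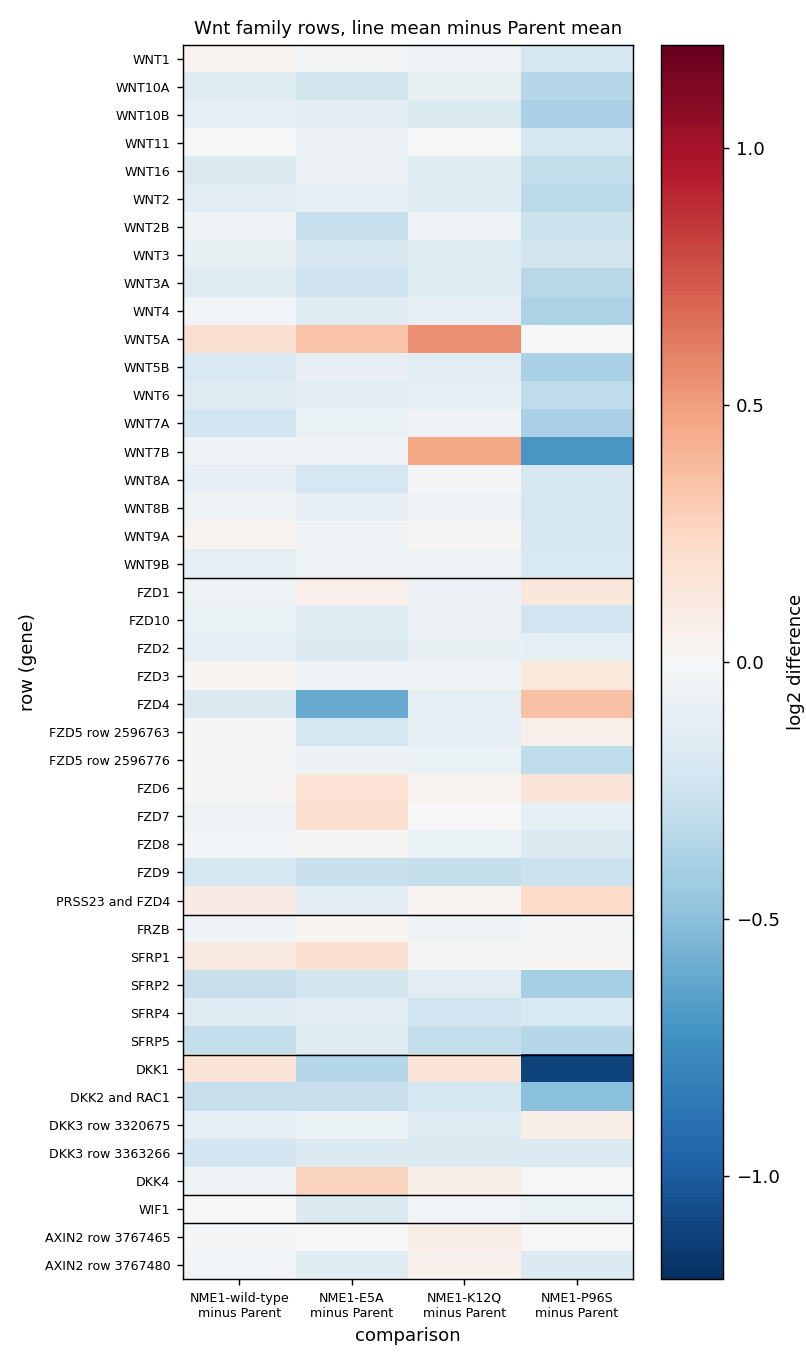
Log2 difference of each NME1 line from Parent (columns) for all 44 member rows, grouped by family (colour scale from blue, lower, to red, higher). DKK1 in NME1-P96S (-1.11), WNT7B in NME1-P96S (-0.69) and FZD4 in NME1-E5A (-0.60) are the deepest blue cells, and the WNT rows are mostly pale blue in the NME1-P96S column.

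Outside the families, a list of 93 genes of the Wnt pathway was followed, of which 81 had rows of their own (83 rows). They comprised ligand release (4 rows), co-receptors and other receptors (12), the R-spondin axis (7), the cytoplasmic relay and destruction complex (21), nuclear factors (12), common targets (11) and the planar polarity and calcium branch (16). Only LGR6, a receptor for the Wnt-enhancing R-spondins, was called. It was lower in NME1-P96S than in Parent, where 0.0962% of all rows were called. It was higher in NME1-K12Q than in NME1-P96S, where 0.283% of all rows were called. In the other 8 comparisons 0 of the 83 rows passed, beside 0.00535% to 0.235% of all rows. With shares this low, a count of 0 or 1 among 83 rows does not set the pathway apart from the table. The median differences of the 83 rows from Parent were -0.02 in NME1-wild-type, 0.01 in NME1-E5A, -0.01 in NME1-K12Q and -0.02 in NME1-P96S, beside -0.03, -0.04, -0.05 and -0.06 over all rows.

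LGR6 had values of 5.64, 5.85, 5.53 and 5.58 in NME1-wild-type, 5.56, 5.59, 5.47 and 5.70 in NME1-E5A, 6.02, 5.87, 6.0 and 6.0 in NME1-K12Q and 5.20, 5.31, 5.79 and 5.22 in NME1-P96S, against 5.95, 6.18, 6.01 and 6.15 in Parent. All arrays of NME1-P96S, NME1-wild-type and NME1-E5A lay below every Parent array, and those of NME1-K12Q overlapped Parent. NME1-P96S minus Parent was -0.69, a 1.62-fold lower level (SE 0.126, adjusted p = 0.0305), and NME1-K12Q minus NME1-P96S was 0.59 (adjusted p = 0.0453, limma). Over single omissions the first difference ran from -0.83 to -0.63 and its call was kept in 12 of 20, being lost without any 1 of the Parent arrays, replicate 3 of NME1-K12Q or replicate 1, 2 or 4 of NME1-P96S (adjusted p up to 0.177). The second ran from 0.53 to 0.73 and its call was kept in 3 of 20, those without replicate 2 of Parent, replicate 2 of NME1-wild-type or replicate 3 of NME1-P96S (adjusted p up to 0.209 in the others). Against Parent, LGR6 stood at -0.42 in NME1-wild-type, -0.49 in NME1-E5A and -0.10 in NME1-K12Q, none of which passed.

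The 4 pathway genes with the highest mean did not pass in any comparison. CTNNB1, which encodes beta-catenin, averaged 10.69 in NME1-wild-type, 10.76 in NME1-E5A, 10.52 in NME1-K12Q and 10.77 in NME1-P96S, against 10.53 in Parent. CCND1, a cell cycle gene and beta-catenin target, averaged 11.45, 11.40, 11.54 and 11.44 in the same 4 lines, against 11.34 in Parent. Among the small GTPases of the polarity branch, RHOA lay at 10.60 to 10.68 in the NME1 lines against 10.51 in Parent, and RAC1 at 10.78 to 10.99 against 10.86 in Parent.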

How the data were processed

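The series table holds log2 expression values of 20 Affymetrix Human Exon 1.0 ST arrays; per the labels and the design text, the authors processed the arrays in R with RMA (robust multi-array average) and ran 4 technical replicates per line. The submitters' processing notes also name limma; the build and probe annotation are not given in the sources used here. Rows were named from the platform annotation: 14735 had 1 symbol, 2873 several, and 1100 were not listed. With deposited log2 values, no further normalisation was applied. limma 3.58.1 in R 4.3.3 fitted a mean per line over all 20 arrays (lmFit and eBayes, 15 residual and 4.69 prior degrees of freedom). Tests were two-sided and adjusted by Benjamini-Hochberg over 18708 rows; a fold of 1.5 was also required. The script was tested on simulated data. The number of arrays limits precision.

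Members called in any test, the 10 with the highest mean and the 6 with the largest range between line means were given by array, and the others as ranges. Of the pathway list, called rows and the 4 with the highest mean were named. Members, lists and tests were chosen with earlier results of these data known. Same-numbered arrays of NME1-wild-type and Parent, and of NME1-K12Q and NME1-wild-type, deviated together (all 4 correlations over 0.1); those of the other 8 pairs of lines did not all do so. Alternatives were a replicate block, quantile normalisation, centring on array medians, the interquartile range as a covariate, omission of 3 narrow arrays or of each array, fits of 8 arrays, and other row filters and call rules.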

Additional observations from a re-analysis of the deposited data

Results flagged for a closer look

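FZD4 in NME1-wild-type replicate 1 was 6.76, below the other 3 arrays of its line, the nearest of which was 6.91. The gap was 0.880 of the range of the 4 arrays, above Dixon's critical value for 4 arrays at the 95% level. It was 1 of 70 groups of 4 arrays examined, and chance flags about 1 in 20 such groups.

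For 3 members the difference from Parent differed between NME1 lines by limma's test of that difference. For DKK1, NME1-P96S minus NME1-wild-type was -1.26 and NME1-K12Q minus NME1-P96S was 1.26. FZD4 differed by -0.95 for NME1-E5A minus NME1-P96S, and WNT7B by 1.16 for NME1-K12Q minus NME1-P96S. The Parent values cancel in each of these differences.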

How the results depend on the processing

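Over 40 same-numbered pairs of arrays from different lines, deviations from the line means correlated at -0.847 to 0.807 (median 0.234, against -0.0548 for 120 pairs of different number), and 25 pairs were over 0.1. All 4 pairs were over 0.1 for NME1-wild-type with Parent and NME1-K12Q with NME1-wild-type, where a replicate block left 0 changed members as before, and in the other 8 pairs of lines they were not. The called differences of FZD4, DKK1, WNT7B and LGR6 kept their sign in every alternative that gave a value. With the replicate block, 2 members were changed in NME1-E5A against NME1-P96S (1 without it, DKK1 being added at 0.77, adjusted p = 0.00491, limma) and 1, DKK1, in NME1-P96S against Parent (0 without it; -1.11, adjusted p = 0.000360, limma), while LGR6 was not called in either of its comparisons (0 in place of 1). Changed members in NME1-P96S against Parent also numbered 1 after quantile normalisation and 1 when the fit held the interquartile range as a covariate. FZD4 lost its call in NME1-E5A against Parent (0 in place of 1) with arrays centred on their medians, without the 3 narrowest arrays and in a fit of only the 8 arrays compared. Fits of 8 arrays also left 0 members in NME1-K12Q against NME1-P96S (2 otherwise) and 0 in NME1-P96S against NME1-wild-type (1 otherwise). Without the 3 narrowest arrays WNT7B was added to NME1-P96S against NME1-wild-type and to NME1-E5A against NME1-P96S (2 members each). With no minimum fold FZD4 was added to the first of these (2). It was then also added to DKK1 and WNT7B in NME1-K12Q against NME1-P96S (-0.47, adjusted p = 0.0468, limma). With dim rows left out NME1-K12Q against NME1-P96S held 1 member, the WNT7B row having been removed. The LGR6 call was 0 in both comparisons after quantile normalisation, in fits of 8 arrays and with an intensity trend and robust fit. It was 0 in NME1-K12Q against NME1-P96S when array width was a covariate. With dim rows left out the LGR6 row was removed and not tested. With 1 array left out, changed members numbered 0 to 1 in NME1-E5A against Parent, NME1-P96S against Parent and NME1-P96S against NME1-wild-type, 0 to 2 in NME1-K12Q against NME1-P96S and 1 to 2 by the F test, and LGR6 was called in 0 to 1 comparison of each kind. The cause of these changes was not tested beyond what each setting removes.

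Over the whole table, the number of changed rows ranged over the settings other than single omissions from 1 to 11 in NME1-wild-type against Parent (6 as reported), 12 to 68 in NME1-E5A (40), 0 to 9 in NME1-K12Q (1) and 0 to 37 in NME1-P96S (18). Against NME1-wild-type it was 25 to 59 in NME1-E5A (38), 2 to 22 in NME1-K12Q (6) and 11 to 97 in NME1-P96S (37). It was 27 to 62 for NME1-E5A against NME1-K12Q (32), 7 to 202 for NME1-E5A against NME1-P96S (44) and 2 to 89 for NME1-K12Q against NME1-P96S (53). The F test was not run on 8 arrays.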
